A study of Solanum tuberosum with 12 samples.

Results

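Of the 39027 genes counted in potato shoot tips, 39 were nearly silent in tips that had never been frozen and were on after cryopreservation under every light given during recovery. They were chosen by their group means in CPM, the reads of a gene per 1000000 counted reads of its library. A member had a mean under 0.5 CPM in non-cryopreserved tips, a mean of at least 3 CPM in each of the 3 cryopreserved groups, and a largest cryopreserved mean under 2 times the smallest. All 12 libraries entered that choice, so the low values without cryopreservation, the higher values after it and the similar means between lights are descriptions of the selection. The order of the 3 libraries within a group was no criterion, though a single high library can lift a group mean over its limit.

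The tissue was in vitro shoot tips of the potato (Solanum tuberosum) genotype Agrie Dzeltenie, from plants 3.5 weeks old grown under cool white fluorescent tubes. Tips of 3 groups were held for 2 h in 10% DMSO (dimethyl sulfoxide, which enters cells and limits ice damage) with 30% sucrose, frozen in droplets, kept in liquid nitrogen for 1 h, rewarmed in liquid medium, and left for 48 h in darkness on a regeneration medium with zeatin riboside, gibberellic acid and indole acetic acid. They then spent 16 h under light-emitting diodes (LEDs) of 90% red and 10% blue light, in continued darkness, or under cool white fluorescent light. Tips of the fourth group were not cryopreserved, were trimmed to 1 mm and received cool white light only. The labels do not state that they were placed on the regeneration medium or kept in darkness for 48 h, so cryopreservation cannot be told apart from those steps. Each group had 3 libraries, described as biological replicates, each from 10 pooled tips of this single genotype, and the intensity of either light was 40 µmol m-2 s-1.

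Freezing and rewarming injure plant cells through dehydration, ice, membrane damage and reactive oxygen species, and the surviving cells of a shoot tip pass through stress and wound responses before they divide again. The regeneration medium supplies a cytokinin (zeatin riboside), a gibberellin and an auxin (indole acetic acid), hormones that themselves control gene expression. Light acts on seedlings and shoot tips through phytochromes, which absorb red and far-red light, and through cryptochromes and phototropins, which absorb blue light. Red and blue light can thus change transcription through different receptors, and in darkness most of these receptors are inactive.

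The count files give identifiers without names, and 0 of them matched the RefSeq gene table used here, so the members are given by identifier, with no function, position or sequence. For the same reason the labelled tissue could not be checked against marker genes. Libraries held 6342324 to 10572258 counted reads, and within each group the counts of any replicate pair differed beyond sampling noise (2.94 to 19.3 chi-square units per degree of freedom). The widest gap was between LED replicates 1 and 3.

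The members were rare transcripts in every group. Their median group mean was 5.43 CPM under LEDs, 5.15 CPM in darkness, 5.64 CPM under cool white light and 0.308 CPM in non-cryopreserved tips. Summed over the 39 genes, replicates 1, 2 and 3 held 164, 243 and 517 CPM under LEDs, 266, 306 and 344 CPM in darkness, 322, 352 and 230 CPM under cool white light, and 11.7, 11.8 and 9.63 CPM in non-cryopreserved tips. The group means were alike after cryopreservation, at 308 ± 185 CPM under LEDs, 305 ± 39.4 in darkness and 301 ± 63.7 under cool white light (SD, n = 3 each), with the widest spread under LEDs. In reads, the 39 genes had 8289 under LEDs, 6739 in darkness, 7052 under cool white light and 244 in non-cryopreserved tips, each summed over 3 libraries. Averaged over the 3 cryopreserved means, 17 members lay between 3 and 5 CPM, 15 between 5 and 10, 5 between 10 and 20, and 2 above 20. In bulk tissue, more RNA per cell and more cells of a type that holds the RNA cannot be told apart.

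**Figure D1:**
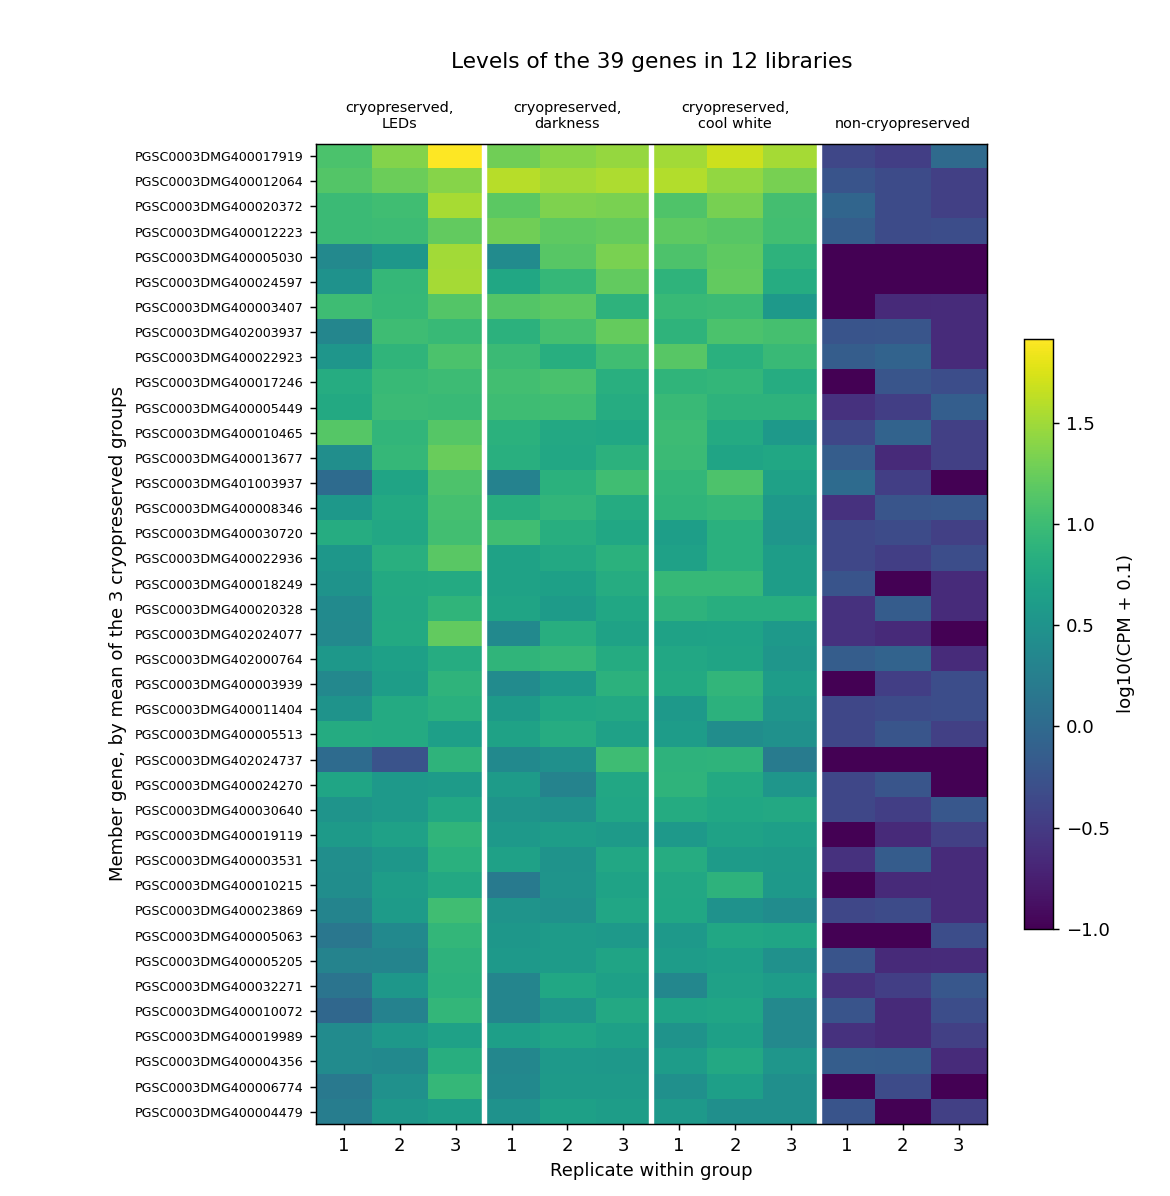
Each row is 1 of the 39 genes, ordered by its mean over the cryopreserved groups, and each column 1 of the 12 libraries; colour gives log10(CPM + 0.1). The non-cryopreserved columns are dark throughout, LED replicate 3 is the brightest LED column for 35 genes and LED replicate 1 the darkest for 32.

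The highest member, PGSC0003DMG400017919, had 12.1, 23.6 and 82.3 CPM under LEDs, 19.1, 24.6 and 28.2 CPM in darkness, 32.0, 49.6 and 33.2 CPM under cool white light, and 0.315, 0.246 and 0.911 CPM in non-cryopreserved tips. All 9 cryopreserved libraries were above all 3 non-cryopreserved ones, and LED replicate 3 was the highest library of all. Its LED mean was 39.3 ± 37.6 CPM (SD, n = 3), and 17.9 CPM without replicate 3. PGSC0003DMG400012064 followed with 13.5, 17.9 and 24.2 CPM under LEDs, 39.7, 32.4 and 36.1 CPM in darkness, 37.8, 27.5 and 20.6 CPM under cool white light, and 0.473, 0.369 and 0.260 CPM in non-cryopreserved tips. Its dark libraries were all above its LED libraries, while the cool white libraries overlapped both. These 2 genes took 18.9% of the members' reads under LEDs, 19.7% in darkness and 22.2% under cool white light.

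The 2 lowest members sat just above the limit of 3 CPM. PGSC0003DMG400004479 averaged 3.01 ± 1.26 CPM under LEDs, 3.83 ± 0.770 in darkness, 3.02 ± 0.487 under cool white light and 0.244 ± 0.237 CPM in non-cryopreserved tips (SD, n = 3 each). PGSC0003DMG400006774 averaged 4.32 ± 3.81 CPM under LEDs, 3.30 ± 0.873 in darkness, 3.28 ± 0.885 under cool white light and 0.123 ± 0.213 CPM in non-cryopreserved tips (SD, n = 3 each). Of its 117 LED reads, 83 came from replicate 3, and its LED mean was 2.17 CPM without that library. In all, 7 members had a smallest cryopreserved mean under 3.5 CPM. PGSC0003DMG400007527 stood just outside the rule, with a mean of 2.99 CPM under LEDs, 3.76 in darkness, 3.13 under cool white light and 0.292 CPM in non-cryopreserved tips.

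The genes were close to silent without cryopreservation, though most were not at 0. In non-cryopreserved tips 24 members had reads in all 3 libraries, 10 in 2 libraries, 2 in 1 library and 3 in none. The median was 7 reads over the 3 libraries and the highest 11, and no non-cryopreserved library gave a member more than 7 reads or 0.946 CPM. A group with no read could still hold up to 0.135 CPM, the level of 3 reads over its 3 libraries, a limit that covers counting error only. The members with 0 reads were PGSC0003DMG400005030, PGSC0003DMG400024597 and PGSC0003DMG402024737.

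PGSC0003DMG400005030 had 2.27, 3.37 and 32.1 CPM under LEDs, 2.42, 14.3 and 21.2 CPM in darkness and 12.5, 15.4 and 7.52 CPM under cool white light. Against 3 reads in the pooled non-cryopreserved libraries, it was 98.2-fold higher under LEDs, 92.0-fold in darkness and 86.1-fold under cool white light. These are lower bounds for counting error in the non-cryopreserved libraries only. Of its 355 LED reads, 309 came from replicate 3. Its LED mean of 12.6 CPM became 2.82 CPM without replicate 3, and its dark mean, also 12.6 CPM, was 8.37 CPM without dark replicate 3. PGSC0003DMG400024597 had 2.93, 8.74 and 33.1 CPM under LEDs, 5.39, 8.74 and 16.2 CPM in darkness and 7.69, 16.1 and 6.32 CPM under cool white light. The LED mean of this gene, 14.9 CPM, became 5.83 CPM without replicate 3. PGSC0003DMG402024737 was the least even of all members, with 0.946, 0.460 and 7.70 CPM under LEDs, 2.29, 2.79 and 10.1 CPM in darkness and 7.56, 7.81 and 1.55 CPM under cool white light. Its highest cryopreserved library was 21.9 times its lowest, and without replicate 3 its LED mean was 0.703 CPM and its dark mean 2.54 CPM. For each of the 3 genes with 0 reads, LED replicate 3 and dark replicate 3 were the highest libraries of their groups and cool white replicate 3 the lowest of its group.

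For the other 36 members a ratio of pooled reads could be formed, each group's reads being taken relative to its pooled library totals. The median ratio to non-cryopreserved tips was 20.3 under LEDs, 18.9 in darkness and 20.7 under cool white light, and with the 3 members without reads at their bounds the medians were 22.1, 20.4 and 22.0. The lowest ratios were 8.71, 6.90 and 8.69 in the same groups. PGSC0003DMG400003407 had the highest, named here after its values were seen: 123 under LEDs (95% exact interval 33.7 to 1019), 136 in darkness (37.3 to 1129) and 80.3 under cool white light (21.9 to 668), from only 2 reads in non-cryopreserved tips. These intervals cover counting error only.

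At the upper edge for non-cryopreserved tips, 7 members had a mean of at least 0.4 CPM. PGSC0003DMG402000764 and PGSC0003DMG400022923 lay nearest to the limit, each with 4, 6 and 1 reads or 0.631, 0.737 and 0.130 CPM in the non-cryopreserved libraries. PGSC0003DMG402000764 averaged 4.73 ± 1.39 CPM under LEDs, 7.57 ± 1.28 in darkness and 4.62 ± 1.15 under cool white light (SD, n = 3 each). PGSC0003DMG400022923 averaged 7.85 ± 4.48 CPM under LEDs, 8.89 ± 1.93 in darkness and 10.2 ± 3.86 under cool white light (SD, n = 3 each). PGSC0003DMG400021824 fell just outside at 0.502 CPM, with means of 9.76 CPM under LEDs, 12.1 in darkness and 15.2 under cool white light.

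**Figure D2:**
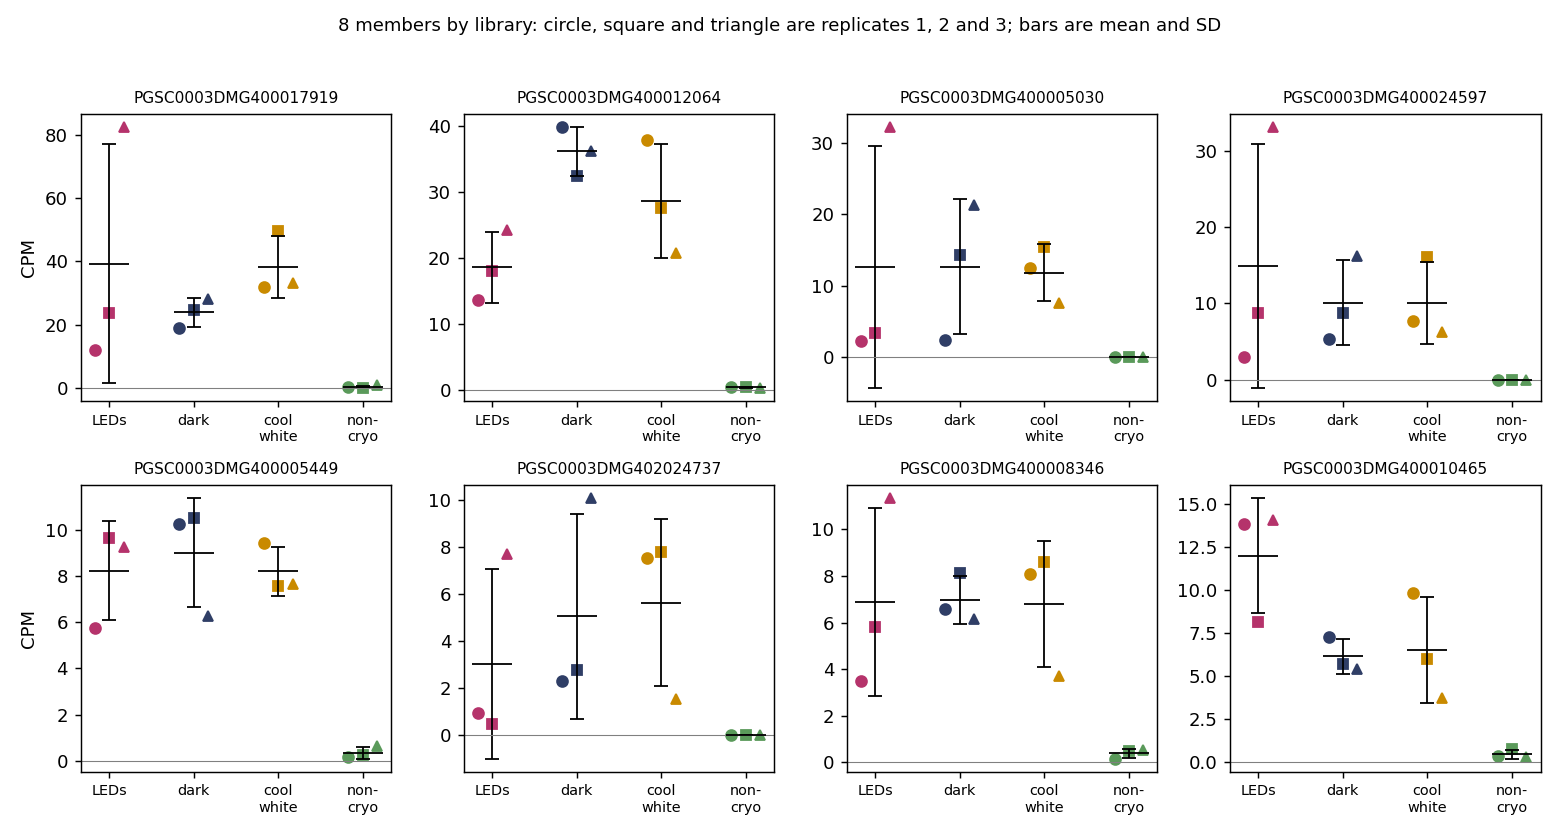
CPM of 8 members in each library of the 4 groups, with circles, squares and triangles for replicates 1, 2 and 3 and bars for the mean and SD of 3 libraries. For PGSC0003DMG400017919, PGSC0003DMG400005030 and PGSC0003DMG400024597 the LED mean is pulled up by replicate 3 (82.3, 32.1 and 33.1 CPM), while PGSC0003DMG400005449 is even over its 9 cryopreserved libraries.

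Group means of the same 12 libraries chose the members, so the separation of single libraries given here describes that choice. For every member, each library in darkness and under cool white light lay above all non-cryopreserved ones. Cryopreserved libraries lay above all 3 non-cryopreserved libraries for 38 members under LEDs, 39 in darkness and 39 under cool white light, where 31.5%, 29.2% and 35.7% of the 19920 tested genes did so. The exception, PGSC0003DMG401003937, had 0.946, 4.90 and 12.5 CPM under LEDs and 0.946, 0.246 and 0 CPM in non-cryopreserved tips. By the quasi-likelihood test of edgeR (Benjamini-Hochberg adjustment), 39 members passed as higher under LEDs, 39 in darkness and 39 under cool white light, beside 27.3%, 27.7% and 27.8% of all tested genes. All 39 passed the filter on low counts through the groups in which they were high, and these contrasts chose the members. Nothing is therefore read from these calls or from the separation of libraries.

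Between lights the means of every member differed by less than 2 times, as the rule required. Of the 43 genes that met both level limits, the limit on the ratio kept out 4. The largest cryopreserved mean was 1.02 to 1.96 times the smallest, with a median of 1.42. The highest mean was under LEDs for 12 members, in darkness for 14 and under cool white light for 13, and the lowest was under LEDs for 10, in darkness for 11 and under cool white light for 18. The median log2 fold change of the members was 0.05 for LEDs against cool white light, 0.12 for darkness against cool white light and -0.03 for LEDs against darkness, beside -0.01, -0.00 and 0.01 over all tested genes.

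PGSC0003DMG400008346 had the smallest ratio between cryopreserved group means, 1.02. It averaged 6.89 ± 4.03 CPM under LEDs, 6.95 ± 1.03 in darkness, 6.79 ± 2.69 under cool white light and 0.390 ± 0.202 CPM in non-cryopreserved tips (SD, n = 3 each). Its LED libraries were unequal all the same, at 3.50, 5.82 and 11.3 CPM. PGSC0003DMG400003531 was next, with a ratio of 1.07 and means of 4.36 ± 2.37 CPM under LEDs, 4.39 ± 1.27 in darkness, 4.65 ± 1.37 under cool white light and 0.301 ± 0.272 CPM in non-cryopreserved tips (SD, n = 3 each). At the other edge, PGSC0003DMG400010465 had a ratio of 1.96, with 13.8, 8.12 and 14.0 CPM under LEDs, 7.27, 5.70 and 5.41 CPM in darkness, 9.82, 5.99 and 3.70 CPM under cool white light and 0.315, 0.737 and 0.260 CPM in non-cryopreserved tips. Its LED libraries were all above its dark libraries and overlapped those under cool white light. PGSC0003DMG400012064 came second with a ratio of 1.94 and was highest in darkness.

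Few members had separate libraries between lights. For LEDs and cool white light 1 member had separate libraries, PGSC0003DMG400005513, against 22.3% of tested genes. For darkness and cool white light 5 members had separate libraries, against 35.5% of tested genes: PGSC0003DMG400005513 and PGSC0003DMG402000764 were higher in darkness, and PGSC0003DMG400017919, PGSC0003DMG400020328 and PGSC0003DMG400030640 lower. For LEDs and darkness 2 had separate libraries, against 26.7% of tested genes, with PGSC0003DMG400010465 higher and PGSC0003DMG400012064 lower under LEDs. With edgeR's quasi-likelihood test, 0 members passed between LEDs and cool white light, 1 between darkness and cool white light (PGSC0003DMG400005513) and 1 between LEDs and darkness (PGSC0003DMG400012064), beside 1.44%, 15% and 10.6% of tested genes. With single libraries left out, 0 to 1 members passed between darkness and cool white light. In those fits 1991 to 3493 of 20231 to 20309 tested genes passed. Between LEDs and darkness 1 to 6 members passed, beside 1211 to 2997 tested genes. The 6 came without LED replicate 3, where 2997 of 20284 tested genes passed. Between LEDs and cool white light, 3 members had an unadjusted p under 0.05 in edgeR's quasi-likelihood test, beside 17.2% of tested genes. For this pair DESeq2 and limma called 0 members, beside 736 of the 39027 genes counted and 423 of 19920 tested genes. The limit on the ratio acted on the means of the same libraries, and it alone kept 4 genes out of the set. No result about the members is read from the low shares.

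PGSC0003DMG400005513 had 6.15, 5.98 and 4.37 CPM under LEDs, 4.72, 6.33 and 4.53 CPM in darkness, 3.98, 2.60 and 2.86 CPM under cool white light and 0.315, 0.491 and 0.260 CPM in non-cryopreserved tips. Its cool white libraries were the lowest of the 9, and its LED and dark libraries overlapped. It is also 1 of the 2 members in which LED replicate 3 was below LED replicate 1. The genes singled out by library overlap here were named after their values were seen.

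Libraries of one group differed widely, and for most members the same libraries were high or low. The choice is not independent of this, since 12 members reached a mean of 3 CPM under LEDs only with LED replicate 3. Under LEDs, replicate 3 was the highest library for 35 of the 39 members and replicate 1 the lowest for 32, and both held for 30. Over all tested genes LED replicate 3 was highest for 31.5% and replicate 1 lowest for 32.9%. The median ratio of LED replicate 3 to replicate 1 was 3.24 over the members, with a range of 0.711 to 14.2, and 0.962 over all tested genes. It was at least 2 in 26 members and at least 4 in 15, where 4.42% and 0.870% of the 9539 tested genes in the level range of the members, with at least 3 CPM in each cryopreserved group, reached these ratios. In 24 members LED replicate 3 gave more reads than the other LED libraries together. Of the 9 cryopreserved libraries, LED replicate 3 was the highest for 21 members and LED replicate 1 the lowest for 26. Among the 22 genes that met the rule on replicates 1 and 2 alone, LED replicate 3 was the highest LED library for 16. That library took no part in this choice, apart from any use in setting the limits.

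**Figure D3:**
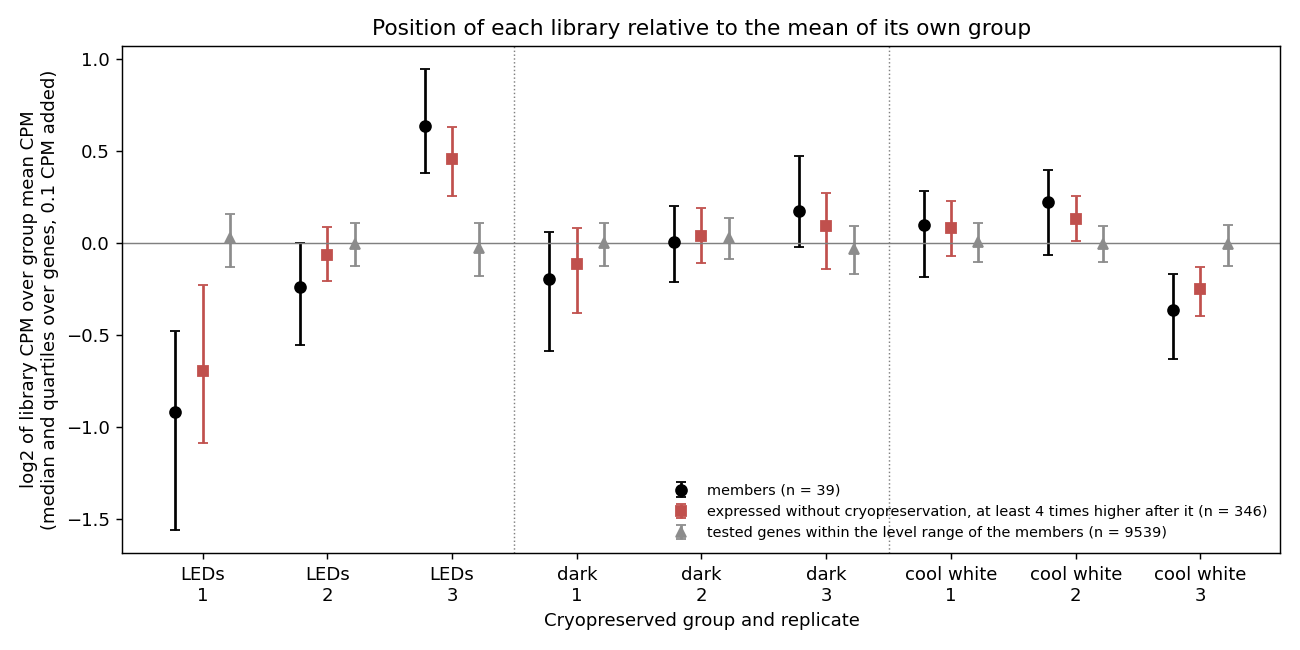
The vertical axis gives log2 of a library's CPM over the mean of its own group (0.1 CPM added), as the median and quartiles over genes, for each cryopreserved library along the horizontal axis and for 3 sets of genes. The members and the genes already expressed without cryopreservation but at least 4 times higher after it deviate in the same direction in each of the 9 libraries, with both medians near 0 in dark replicate 2. The medians of tested genes within the range of the members' levels, most of them at higher levels than most members, stay within 0.03 of 0.

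Cool white and dark libraries differed as well, by less. Under cool white light replicate 3 was the lowest library for 27 members and the highest for 0, and replicate 2 the highest for 25. In darkness replicate 3 was the highest for 21 and replicate 1 the lowest for 21. The median deviation from the group mean, on the log2 scale, was -0.92 in LED replicate 1, -0.24 in LED replicate 2 and 0.64 in LED replicate 3. In darkness it was -0.20, 0.00 and 0.18, and under cool white light 0.10, 0.23 and -0.36, for replicates 1, 2 and 3. Over tested genes whose mean lay within the level range of the members, the median deviation was at most 0.03 in size in each of these libraries.

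The largest library of a group was a median 3.24 times the smallest under LEDs, 1.66 times in darkness and 1.90 times under cool white light over the members. Over the 9539 tested genes in the same range of levels the medians were 1.32, 1.28 and 1.24. These genes were mostly higher than the members, with library medians of 11.8 to 14.1 CPM against 2.93 to 8.63 CPM for the members, and so had more reads per gene. Of the members, 39 under LEDs, 34 in darkness and 37 under cool white light had a wider spread than that median gene. At least a 2-fold spread was found for 26 members under LEDs, 11 in darkness and 17 under cool white light, where 8.00%, 4.75% and 2.22% of the genes in that range reached it. The comparison was restricted to this range of levels after the data were seen, and against all tested genes with at least 3 CPM in each cryopreserved group the members' counts were 39, 36 and 37.

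Genes of closer levels were then set beside the members, in classes also taken after the data were seen. Between 3 and 5 CPM, the median ratio of the highest to the lowest library was 2.67 under LEDs, 1.70 in darkness and 1.68 under cool white light for the 17 members, and 1.50, 1.48 and 1.41 for the 895 tested genes of that class. Between 5 and 10 CPM it was 3.39, 1.55 and 1.93 for the 15 members and 1.40, 1.38 and 1.31 for the 2590 tested genes. The gap to genes of the same level was widest under LEDs and narrowest in darkness in both classes. LED replicate 3 was the highest LED library for 15 of the 17 members in the lower class, against 33.7% of its tested genes, and for 13 of the 15 in the upper class, against 30.6%.

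Genes that were already expressed without cryopreservation and were higher after it showed the same order of libraries. A set of 346 genes was taken after the data were seen, with at least 0.5 CPM in non-cryopreserved tips, at least 4 times that mean and 3 CPM in each cryopreserved group, and the same limit of 2 on the ratio of the cryopreserved means. Their median level was 20.2 CPM under LEDs, 21.9 in darkness, 22.8 under cool white light and 2.87 CPM in non-cryopreserved tips. LED replicate 3 was the highest LED library for 81.5% of them and LED replicate 1 the lowest for 79.8%, with a median ratio of replicate 3 to replicate 1 of 2.21. Cool white replicate 3 was the lowest of its group for 75.4%. Whether the 39 members differ from these genes in spread was not tested.

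Members with a wide LED spread also tended to differ between dark replicates. In the 15 members with LED replicate 3 at least 4 times LED replicate 1, dark replicate 3 was above dark replicate 1 in 15, with a median ratio of 2.04 and a range of 1.09 to 8.75. In the other 24 it was above in 14, with a median ratio of 1.07 and a range of 0.515 to 3.26. Under cool white light the median ratio of replicate 3 to replicate 2 was nearly the same in both sets, 0.67 in the 15 and 0.65 in the 24. These values are a description over genes that share their libraries. The member with the smallest spread over all 9 cryopreserved libraries, PGSC0003DMG400005449, had 5.77, 9.66 and 9.26 CPM under LEDs, 10.2, 10.5 and 6.29 CPM in darkness, 9.42, 7.55 and 7.64 CPM under cool white light and 0.158, 0.246 and 0.651 CPM in non-cryopreserved tips. Its highest cryopreserved library was 1.82 times its lowest, against a median of 3.80 over the members.

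Membership depended on LED replicate 3. Without that library 12 of the 39 members had an LED mean under 3 CPM, the median LED level of the members was 4.19 CPM, and 26 genes met the rule, 25 of them among the 39. Without LED replicate 1 the median LED level was 6.84 CPM and 38 genes met the rule, 34 of them among the 39. Leaving out single libraries of the other cryopreserved groups left between 32 and 39 genes. Without non-cryopreserved replicate 1, 2 or 3 the rule found 52, 51 and 36 genes, of which 37, 36 and 33 were among the 39. The limits on both levels were met in every one of the 12 libraries by 8 members. The highest 2 of these, picked out after their values were seen, were PGSC0003DMG400012064 and PGSC0003DMG400003407, which had 10.0, 8.89 and 13.7 CPM under LEDs, 13.5, 15.2 and 7.61 CPM in darkness, 9.02, 9.50 and 3.58 CPM under cool white light and 0, 0.123 and 0.130 CPM in non-cryopreserved tips.

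**Figure D4:**
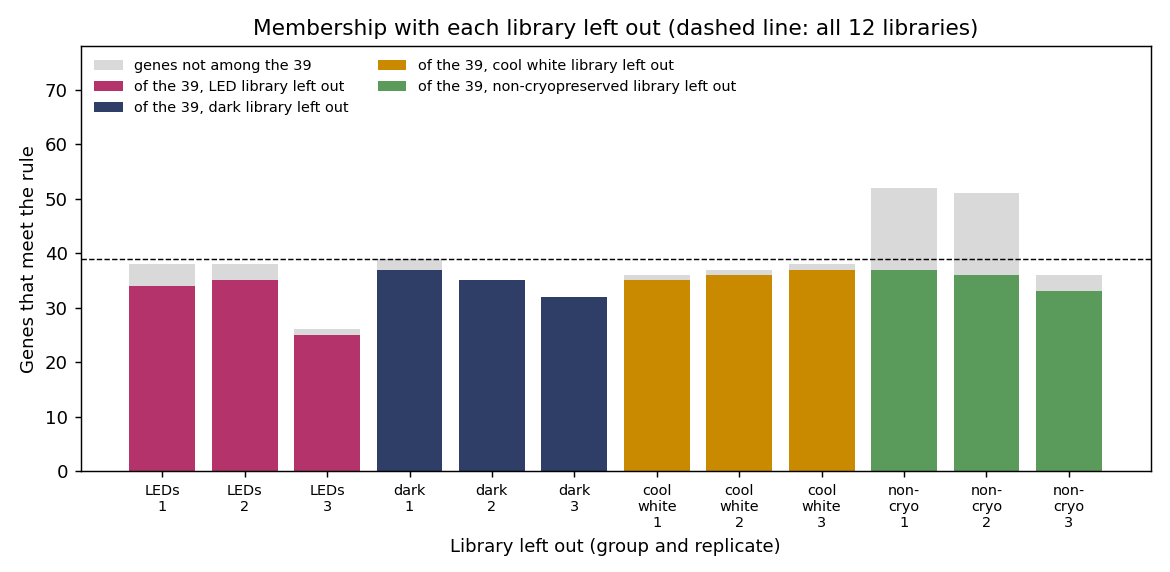
Bars give the number of genes that met the rule when 1 library was left out, coloured for genes among the 39 and grey for others, by the library left out. The lowest bar, 26 genes, is without LED replicate 3, and the highest bars, 52 and 51, are without non-cryopreserved replicates 1 and 2.

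The same measure was taken in libraries left out of the choice, with 1 library per group. The limits themselves were chosen with earlier results of these data known. Chosen on replicates 1 and 2 of each group, 22 genes met the rule. In the replicate 3 libraries all 22 were higher in each cryopreserved library than in the non-cryopreserved one, 21 had at least 3 CPM under LEDs, 22 in darkness and 20 under cool white light, and 15 had under 0.5 CPM in the non-cryopreserved library. Both level limits were met there by 13 of the 22. Their median in replicate 3 was 9.57 CPM under LEDs, 5.63 in darkness, 5.19 under cool white light and 0.390 CPM without cryopreservation.

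With replicate 1 left out, 52 genes were chosen and 49 were higher in all 3 cryopreserved libraries of replicate 1 than in its non-cryopreserved library. Both level limits were met by 12 of these 52, since only 24 reached 3 CPM in LED replicate 1 and 29 stayed under 0.5 CPM without cryopreservation. With replicate 2 left out, 44 were chosen, 42 were higher in all 3 cryopreserved libraries of replicate 2, and 13 met both level limits. The limit on the ratio was met in the left-out libraries by 10 of 22, 20 of 52 and 25 of 44 genes for replicates 3, 1 and 2. Beside these 22, 49 and 42 genes, 7778, 8293 and 7474 of the 19920 tested genes were higher in each cryopreserved library than in the non-cryopreserved one for replicates 3, 1 and 2.

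Of the 18199 genes under 0.5 CPM in non-cryopreserved tips, 18096 stayed under 3 CPM in every cryopreserved group. The other 103 reached 3 CPM in at least 1 cryopreserved group, and among them being on in all 3 was the most frequent pattern, with 43 genes. The remaining 60 comprised 5 genes on under LEDs and in darkness, 13 under LEDs and cool white light, 7 in darkness and cool white light, 7 under LEDs alone, 14 in darkness alone and 14 under cool white light alone. None of the 60 was under 0.5 CPM in any cryopreserved group, and 54 had at least 1 CPM in all 3. So, by group means, no gene that was off without cryopreservation was on under one light and off, by these limits, under another. A single library could decide this. PGSC0003DMG402006909 counted as on under LEDs with 0, 0.460 and 10.8 CPM in replicates 1, 2 and 3. In the reverse direction, 14 genes were under 0.5 CPM in every cryopreserved group and at least 3 CPM without cryopreservation, with a median of 4.15 CPM and a highest mean of 7.24 CPM in non-cryopreserved tips.

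**Figure D5:**
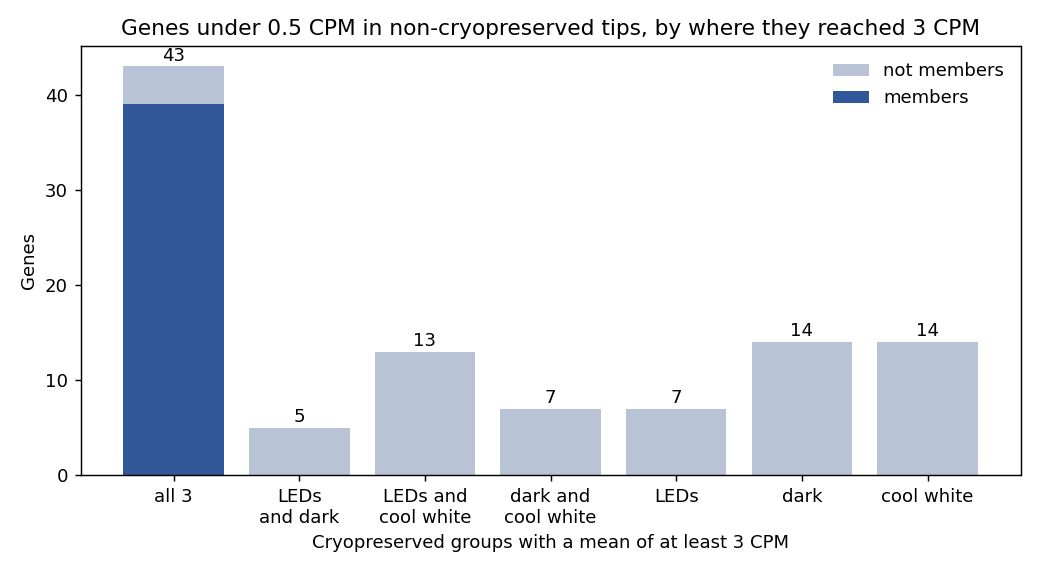
Bars count the genes under 0.5 CPM in non-cryopreserved tips by the cryopreserved groups in which their mean reached 3 CPM, with the members in dark blue. On in all 3 groups is the tallest bar, with 43 genes of which 39 are members.

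The ratio limit alone kept 4 genes out. PGSC0003DMG400008188, the nearest with a ratio of 2.13, averaged 6.53 CPM under LEDs, 3.06 in darkness, 4.91 under cool white light and 0.399 CPM in non-cryopreserved tips. The other 3, PGSC0003DMG400025084, PGSC0003DMG400019205 and PGSC0003DMG402006909, were named after their values were seen. PGSC0003DMG400025084 was far above any member, with 38.0, 59.8 and 100.3 CPM under LEDs, 185, 136 and 77.7 CPM in darkness, 65.7, 75.4 and 37.6 CPM under cool white light and 0.315, 0.123 and 0.521 CPM in non-cryopreserved tips. PGSC0003DMG400019205 averaged 3.71 CPM under LEDs, 6.97 in darkness, 8.64 under cool white light and 0.397 CPM in non-cryopreserved tips. PGSC0003DMG402006909 had 0, 0.460 and 10.8 CPM under LEDs, 1.08, 4.05 and 12.3 CPM in darkness, 17.0, 11.2 and 2.15 CPM under cool white light and no read without cryopreservation. As in PGSC0003DMG402024737, replicate 3 was the highest library under LEDs and in darkness and the lowest under cool white light.

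Some members share the last 6 digits of their identifier with another gene of the table. Both PGSC0003DMG401003937 and PGSC0003DMG402003937 were members. PGSC0003DMG402003937 had 2.08, 10.3 and 9.05 CPM under LEDs, 7.41, 11.4 and 16.7 CPM in darkness, 7.69, 12.1 and 11.2 CPM under cool white light and 0.473, 0.491 and 0.130 CPM in non-cryopreserved tips. Of the other 3 members with such a partner, the partner was also low without cryopreservation for 2. PGSC0003DMG401000764 averaged 1.56 CPM under LEDs, 2.88 in darkness, 1.52 under cool white light and 0.105 CPM in non-cryopreserved tips, and PGSC0003DMG401024077 averaged 3.41, 1.96 and 1.37 CPM under LEDs, in darkness and under cool white light, with 0 reads in non-cryopreserved tips. The partner of PGSC0003DMG402024737, PGSC0003DMG401024737, was expressed throughout, at 63.6 CPM under LEDs, 54.4 in darkness, 62.5 under cool white light and 58.9 CPM in non-cryopreserved tips. The sources used here do not say how such pairs relate or how reads shared by similar genes were counted, so counts of these pairs are uncertain.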

How the data were processed

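RNA was measured in 12 libraries of 4 groups with 3 biological replicates each, taken from the labels. Each sample has a deposited table of unnormalized counts, whole numbers of reads for every gene identifier. Tools listed in the submitters' processing notes are featureCounts 1.5.0, Bowtie 1.1.1 with TopHat2 2.0.8b, DESeq2 1.14.1, and FastQC 1.11.2. The sources used here do not give the build, annotation, strand setting or handling of reads with several matches. Library preparation marked strand and used polyadenylated RNA with an integrity number above 7.4, per the labels' protocols.

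CPM was the count over the column total, and its group means chose the members. The members, the lists and the naming rule were chosen with earlier results of these data known. The rule named up to 2 identifiers for the highest and lowest level, smallest and largest ratio between lights, the limit without cryopreservation, 0 reads and spread over libraries, plus 1 gene outside each limit. Pathway lists and tissue markers had no matched gene and were not used.

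In R 4.3.3, edgeR 4.0.16 kept 19920 genes with filterByExpr (minimum count 10, minimum total 15), scaled counts by TMM, and used glmQLFit and glmQLFTest with a coefficient for each group in 1 fit of the 12 libraries. That left 8 residual degrees of freedom and a common biological coefficient of variation of 13.2%. Tests were two-sided, with Benjamini-Hochberg adjustment over all genes tested and calls at an adjusted p under 0.05. Deviations of libraries added 0.1 CPM. Ratios of pooled reads have exact 95% intervals. DESeq2 1.42.0 and limma 3.58.1 voom were alternatives, beside other scalings, filters, limits, a replicate block, thinning to the smallest library and leaving out libraries.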

Additional observations from a re-analysis of the deposited data

How the results depend on the processing

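The number of members depended most on the limits. It was 14 with a limit of 0.25 CPM and 111 with a limit of 1 CPM in non-cryopreserved tips, 62 and 16 with cryopreserved means of at least 2 and at least 5 CPM, and 8 with both level limits met in every library. Leaving out libraries, 1 at a time or a replicate number in all groups, gave 22 to 52 genes, the lowest without replicate 3. TMM, DESeq2 and upper quartile scaling gave 35, 34 and 32 genes, all among the 39. The median of 3 libraries in place of the mean gave 34 genes, of which 24 were among the 39.

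Counts of members passing between lights rested on 1 gene each. Between darkness and cool white light the count of 1 became 0 with library size scaling alone, beside 2975 of 19920 tested genes. It was 0 with no filter (2841 of 27438) and 0 with DESeq2 (3183 of the 39027 genes counted). With replicate number as a block it was 0 (2731 of 19920). When only the 2 groups compared were fitted it was 3, beside 3656 of 19028 tested genes. With single libraries left out it was 0 to 1, beside 1991 to 3493 of 20231 to 20309 tested genes. Between LEDs and darkness the count was 1 to 6 with single libraries left out, beside 1211 to 2997 tested genes. It was highest without LED replicate 3, where 2997 of 20284 tested genes passed. The replicate numbers gave no sign of pairing, since correlations of same-numbered deviations from group means ranged from -0.241 to 0.201 and 1 of 12 libraries correlated best with their own number; the block changed no other count of members.

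The 14 genes off after cryopreservation and on without it became 24 and 4 with a limit of at least 2 and at least 5 CPM in non-cryopreserved tips. The cause of these changes was not tested, apart from limits that admit fewer or more genes by construction. Of 213 comparisons of a result with an alternative, 189 stayed within 1.5 times the count or within 1 SD of the level. Many of these repeated the calls against non-cryopreserved tips, which the choice of members largely fixed. For the number of members, 26 genes in place of 39 counted as within 1.5 times. The tally therefore says little about how firm the results are. Depth is a further limit, since members had at most 11 reads over the 3 non-cryopreserved libraries, and thinning to the smallest library gave 38 genes, 33 of them among the 39.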
